A study of Mus musculus with 6 samples.

Results

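Tcf7, Lef1, Satb1, Bach2, Foxo1, Foxp1 and Klf2 encode transcription factors that keep T cells in the naive and quiescent state. They were taken by gene name from the 28914 genes of a deposited table. All 7 were present, and all 7 were among the 14334 genes that passed the filter on low values. The table holds RNA sequencing of splenic total CD4 T cells, sorted from NOD mice aged 12 weeks. NOD is an inbred strain prone to spontaneous autoimmune diabetes. The cells were taken in the steady state, with no restimulation through the T cell receptor. The groups are control cells with the genotype label WT, cells labelled Blimp1 knockout (CKO), and cells labelled Blimp-1 overexpression (BTg), with 2 libraries in each. Prdm1 encodes Blimp-1, a transcriptional repressor of effector lymphocytes and plasma cells. The sources used here do not give the Cre line behind the knockout, the deleted exons, the promoter of the transgene or any pooling of mice. Nor do the labels name separate mice for the pair of libraries in a group. The p-values therefore measure the spread between these libraries, which may be technical.

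Naive CD4 T cells recirculate between blood and lymphoid tissue, survive on interleukin-7 and do not divide until they meet antigen. TCF-1 (Tcf7) and LEF-1 (Lef1) are related HMG-box factors that establish T cell identity and are reduced as cells become terminal effectors. SATB1 organises chromatin in thymocytes and naive T cells. BACH2 pairs with small Maf proteins and restrains effector genes, among them Prdm1. FOXO1 is a forkhead factor that enters the nucleus when phosphoinositide 3-kinase signalling is low, and it activates Il7r, Ccr7 and Klf2. FOXP1, of another forkhead branch, enforces quiescence, and KLF2 activates the exit receptor gene S1pr1.

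Because the study alters a DNA-binding repressor, the members' promoter windows were searched for the letters of its recognition motif. RefSeq (GRCm38.p6) gave 17 windows for the 7 genes, each from 250 bases before to 50 bases after an annotated start. The Blimp-1 letters AGNGAAAG, on either strand, were found in 1 of the 17 windows (5.88%), against 8.63% of all 32851 windows. That window belongs to Bach2 and is set around a RefSeq transcript start that lies inside the longer GENCODE gene. The 250 bases before that start, at chr4:32417185-32417434 on the plus strand, are shown because they hold the single match. Capitals mark it, at positions -18 to -11 from the start, on the opposite strand.
Bach2: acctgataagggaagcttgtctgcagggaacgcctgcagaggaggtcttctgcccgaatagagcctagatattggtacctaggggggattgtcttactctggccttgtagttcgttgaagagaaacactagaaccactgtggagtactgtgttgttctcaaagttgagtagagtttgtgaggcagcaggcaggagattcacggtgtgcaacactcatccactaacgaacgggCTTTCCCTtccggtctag
A forkhead motif (GTAAACA) occurred in 1 of the 17 windows, a second Tcf7 window, against 3.65% of all windows. The TCF/LEF letters CTTTGAT and the BACH and AP-1 letters TGANTCA occurred in 0 of 17, against 3.73 and 7.81% of all. No binding was measured, so a match is a description of letters and not of a bound site.

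The libraries held 14958458 to 17799091 reads counted on genes, and the 7 members were each covered by 442 to 18083 reads per library. Levels are given as RPM, the reads of a gene per 1000000 reads counted on all genes, which compares 1 gene between libraries and not different genes. Prdm1 stood at 9.62 and 13.2 RPM in WT, at 17.8 and 14.0 in CKO and at 411 and 631 in BTg. It rose in BTg against WT by 5.38 (SE 0.32) on the log2(RPM + 1) scale, with limma adjusted p = 0.0014. It was not lower in the libraries labelled CKO, and a sum over the whole gene would still count any exon that was not deleted. The part of plasma cells in these Prdm1 values was not tested either. Every direction drawn from the CKO libraries rests on their label. CKO replicate 1 stood apart from the other libraries. Its 10 neutrophil markers summed to 13370 RPM, against 79.0 to 400.1 in the other 5 libraries, and its 8 plasma cell markers to 6191, against 632.5 to 1676. In that library 7.48% of tested genes lay more than 1 log2 unit under the WT mean, against 0.181% in CKO replicate 2. Results that rest on CKO replicate 1 are given with and without it.

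The order of the factors was compared per exon length, as TPM, the share of transcripts on a fixed total. Tcf7 was the most abundant, at 1003 and 1289 TPM in WT, followed by Klf2 at 474 and 494 and Lef1 at 121 and 160. Foxo1, at 68.1 and 93.5 TPM, and Satb1, at 62.0 and 85.5, overlapped in WT. Foxp1 had 40.6 and 49.8 TPM and Bach2 30.3 and 39.2, and these last neighbours did not overlap. The same order held within each WT library, each BTg library and CKO replicate 2. In CKO replicate 1 it differed at 1 step, with Foxo1 (25.9 TPM) above Lef1 (21.5 TPM). Exon length here joins the exons of all annotated transcripts, which lowers the TPM of genes with many long isoforms, such as Satb1 with 19027 bases.

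**Figure D1:**
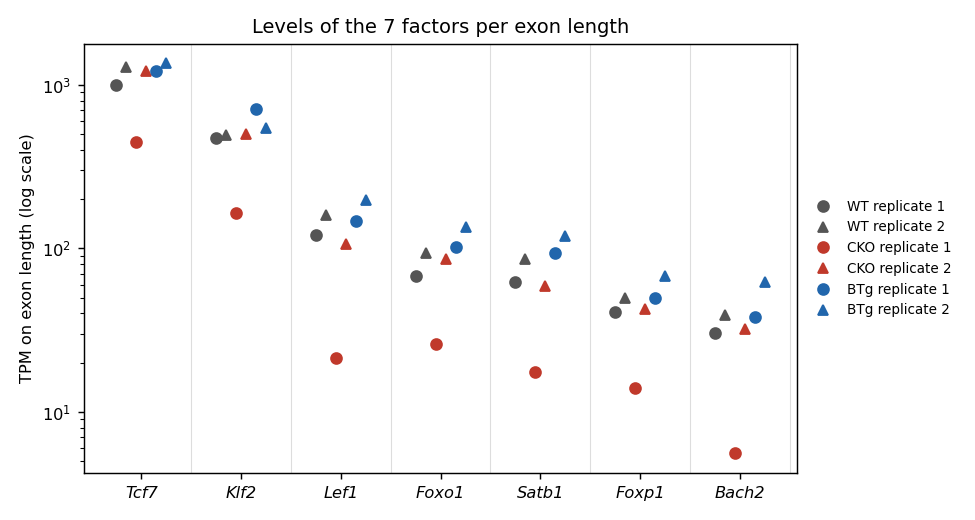
TPM on exon length (log axis) of the 7 factors in each of the 6 libraries, ordered by the WT mean. Tcf7 and Klf2 lie above the other 5 factors in every library, and CKO replicate 1 (red circles) is the lowest library for each factor, from 446 TPM for Tcf7 to 5.57 for Bach2.

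Tcf7 (ENSMUSG00000000782, chromosome 11, 52252371 to 52283014 on GRCm38, minus strand) stood at 1007 and 1069 RPM in WT. It stood at 526 and 1020 in CKO and at 1103 and 1069 in BTg. CKO replicate 1 was at 50.7% of the WT mean, while CKO replicate 2 lay between the WT libraries. The lower BTg library and the higher WT library both round to 1069, so the separation of these groups is smaller than 1 RPM.

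Lef1 (ENSMUSG00000027985, chromosome 3, 131110471 to 131224356, plus strand) was the member furthest below WT in both CKO libraries. Its level was 406 and 443 RPM in WT, 84.8 and 299 in CKO and 450 and 521 in BTg. CKO replicate 1 was at 19.98% of the WT mean and CKO replicate 2 at 70.5%. Of all tested genes, 0.174% lay further below the WT mean in CKO replicate 1, and 3.13% in CKO replicate 2. Both BTg libraries lay above both WT libraries, at 106 and 123% of the WT mean.

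Satb1 (ENSMUSG00000023927, chromosome 17, 51736187 to 51833290, minus strand) stood at 451 and 514 RPM in WT, 149.5 and 359 in CKO and 616 and 685 in BTg. The 3 groups did not overlap. CKO was at 31.0 and 74.4% of the WT mean, and BTg at 128 and 142%. Among tested genes 4.55% lay further below WT in CKO replicate 2, and 94.3 and 90.8% lay lower than Satb1 relative to WT in the BTg libraries.

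Bach2 (ENSMUSG00000040270, chromosome 4, 32238804 to 32586108, plus strand) showed the widest gap between the CKO libraries, 4.16-fold. It stood at 115 and 123 RPM in WT, 24.8 and 103 in CKO and 131 and 187 in BTg. The groups did not overlap. CKO replicate 1 was at 20.8% of the WT mean and CKO replicate 2 at 86.6%. In BTg, where Prdm1 was at its highest, Bach2 was at 110 and 157% of the WT mean.

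Foxo1 (ENSMUSG00000044167, chromosome 3, 52268336 to 52353221, plus strand) stood at 226 and 256 RPM in WT, 100.5 and 239.6 in CKO and 306 and 352 in BTg. CKO replicate 2 lay between the WT libraries, at 99.5% of their mean. Both BTg libraries lay above WT, at 127 and 146%.

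Foxp1 (ENSMUSG00000030067, chromosome 6, 98925338 to 99522721, minus strand) stood at 214 and 216 RPM in WT, 86.2 and 188 in CKO and 237 and 280.2 in BTg. Its WT libraries were the closest pair of any member, and the 3 groups did not overlap.

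Klf2 (ENSMUSG00000055148, chromosome 8, 72319033 to 72321656, plus strand) stood at 335 and 288 RPM in WT, 136 and 296 in CKO and 456 and 302 in BTg. CKO replicate 2 and BTg replicate 2 both lay within the WT range. The high BTg mean therefore rests on BTg replicate 1, at 146% of the WT mean, and BTg replicate 2 was at 97.0%. Klf2 was the 1 member whose BTg and WT libraries overlapped.

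**Figure D2:**
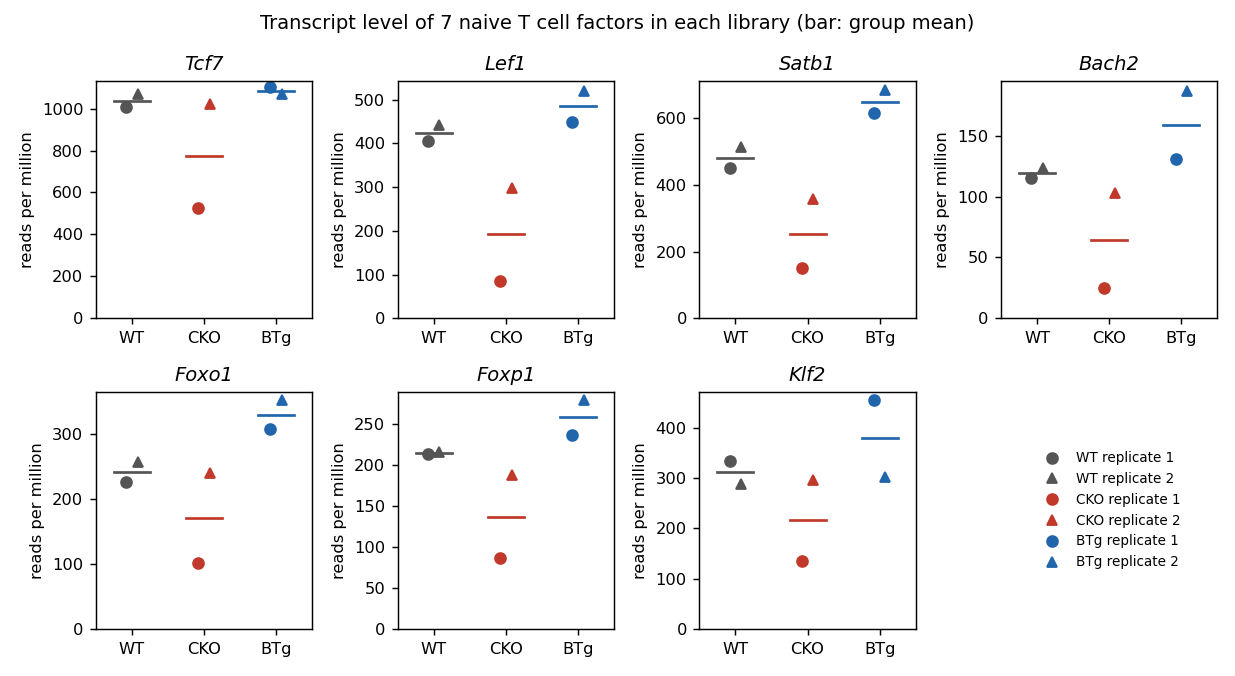
RPM of each factor in each library (linear axes from 0, 1 panel per gene), with a bar at each group's mean of 2 libraries. CKO replicate 1 is the lowest library in all 7 panels, CKO replicate 2 sits near or under WT, and BTg sits above WT for 6 factors, with Tcf7 barely separated and Klf2 overlapping.

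In the libraries labelled CKO all 7 factors had a lower mean than in WT, except that Tcf7 turned sign when scaled to the CD3 genes, and 0 of 7 passed the threshold. The median log2 difference was -0.75, against -0.01 over all 14334 tested genes. Both CKO libraries lay below both WT libraries for Lef1, Satb1, Bach2 and Foxp1, which is 4 of 7, against 9.12% of tested genes. That count was 7 with median-of-ratios scaling (15.9% of tested genes), 0 on the CD3 scale (1.12%) and 2 by TPM (7.69%), where Bach2 and Foxp1 overlapped WT. For 0 of 7 did both lie above, against 15.2% of tested genes. The fitted differences were -1.41 (SE 0.54) for Lef1, -1.21 (SE 0.58) for Bach2 and -1.05 (SE 0.44) for Satb1. Those of Foxp1, Klf2, Foxo1 and Tcf7 were -0.75, -0.63, -0.63 and -0.50. The limma adjusted p ran from 0.749 for Lef1 to 0.998 for Tcf7. At unadjusted p under 0.05 there were 2 of 7, both lower, against 0.907% of tested genes, namely Lef1 and Satb1 (limma unadjusted p = 0.0312 and 0.0433). By adjusted p, 0 genes were called (0%), with limma and with limma voom alike, and 909 had unadjusted p under 0.05.

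The size of these differences rested largely on 1 library. Without CKO replicate 1 they were -0.50 for Lef1, -0.42 for Satb1, -0.20 for Bach2 and -0.19 for Foxp1, with -0.07 for Klf2, -0.02 for Tcf7 and -0.005 for Foxo1. All 7 were still negative, with a median of -0.20 against 0.15 over all tested genes, and 4 of 7 lay below both WT libraries. With a single CKO library this holds for 17.2% of tested genes. Without CKO replicate 2, which leaves CKO replicate 1 alone, the differences of Lef1, Bach2, Satb1 and Foxp1 were -2.31, -2.22, -1.68 and -1.31. In that library 7.48% of all tested genes lay more than 1 log2 unit under the WT mean. Fewer T cells in the sample and less transcript per T cell cannot be told apart in bulk RNA.

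In BTg against WT all 7 means were higher, again except for Tcf7 on the CD3 scale, and 0 of 7 passed the threshold. The median log2 difference was 0.26 against 0.01 over all tested genes. Here 0.0279% of tested genes were called. Both BTg libraries lay above both WT libraries for 6 of 7, all but Klf2, against 13.7% of tested genes, and for 0 of 7 did both lie below, against 12.6%. The count above WT was 3 by TPM (12.9% of tested genes) and 0 on the CD3 scale (1.83%). It was 4 with quantile normalization (18.6%) and 5 with median-of-ratios scaling (17.3%). Differences were 0.45 (SE 0.41) for Foxo1, 0.43 (SE 0.44) for Satb1 and 0.39 (SE 0.58) for Bach2. They were 0.26 for Foxp1 and Klf2, 0.19 for Lef1 and 0.07 for Tcf7. Every limma adjusted p was 1, and at unadjusted p under 0.05 there were 0 of 7 higher, against 0.474% of tested genes. The 95% intervals were wide, from -0.97 to 1.10 for Tcf7 and from -0.94 to 1.72 for Bach2. Without BTg replicate 1 the difference of Klf2 turned to -0.04.

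BTg against the libraries labelled CKO shares its libraries with the 2 comparisons above, so its values are not separate evidence. All 7 factors were higher in BTg with no overlap, against 16.9% of tested genes. For 0 of 7 did BTg lie below CKO, against 27.5%. The count above CKO was 5 with quantile normalization (29.9% of tested genes). On the CD3 scale, where Tcf7 turned sign, it was 1 (2%). The median log2 difference was 1.08, against 0.03 over all tested genes. Bach2 differed by 1.602 (SE 0.58), Lef1 by 1.597 (SE 0.54) and Satb1 by 1.48 (SE 0.44). Foxo1 differed by 1.08 and Foxp1 by 1.01. Klf2 differed by 0.88 and Tcf7 by 0.57. None of the 7 passed, where 0.188% of tested genes did, and limma adjusted p ran from 0.22 for Satb1 to 0.622 for Tcf7. At unadjusted p under 0.05 there were 5 of 7 higher, all but Klf2 and Tcf7, against 3.06% of tested genes. Without CKO replicate 1 the differences were 0.85 for Satb1, 0.69 for Lef1, 0.59 for Bach2, 0.46 for Foxp1, 0.45 for Foxo1, 0.33 for Klf2 and 0.09 for Tcf7. Without CKO replicate 2 they were 1.44 to 2.61 for the 6 members other than Tcf7. With CKO replicate 1 alone, all 7 were higher in BTg with no overlap, as were 50.7% of tested genes.

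**Figure D3:**
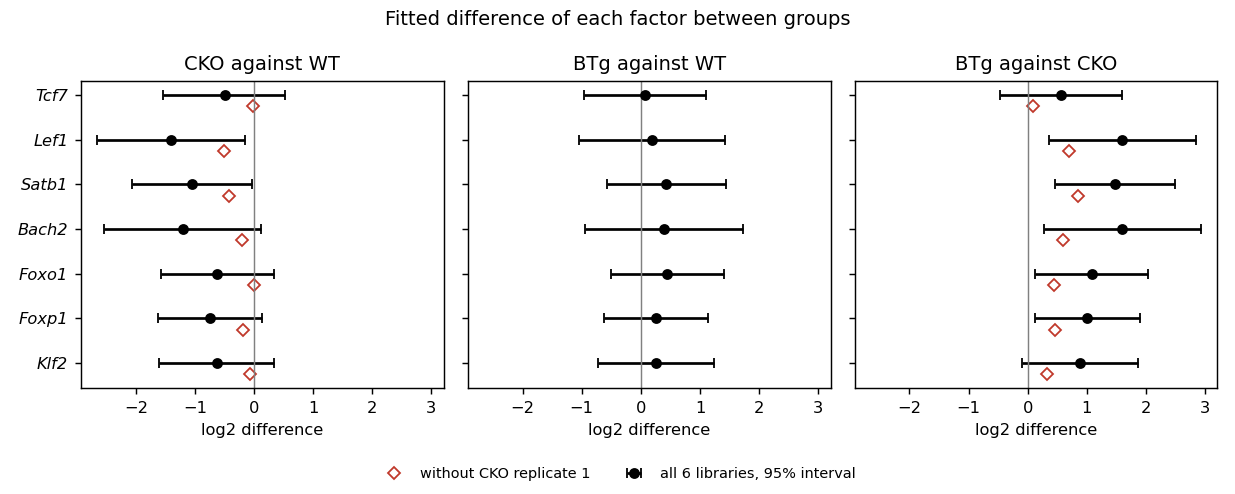
Fitted log2 difference of each factor in the 3 comparisons, with its 95% interval (black), and the value without CKO replicate 1 (open red diamonds, CKO comparisons). All 7 points lie left of 0 for CKO against WT and right of 0 in the other panels, and the diamonds lie closer to 0, down to -0.005 for Foxo1. Tcf7 changes sides in each panel when scaled to the CD3 genes.

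General T cell genes and markers of other cells also differed between these libraries. The 14 core T cell genes (receptor chains, Cd4, coreceptors and proximal kinases) summed to 4472 RPM in CKO replicate 1, or 60.8% of the WT mean. The sum was 5995 and 8722 in WT, 6510 in CKO replicate 2, and 8806 and 7462 in BTg. When CKO replicate 1 was left out, 9 of 14 core genes and 6 of the 7 CD3 and receptor genes among them had a lower CKO mean than WT, with medians of -0.17 and -0.37. The 7 factors together were at 39.1% of their WT mean in CKO replicate 1. Scaled to the core T cell sum, Lef1 in CKO replicate 1 was at 31.5% of the WT mean, Bach2 at 32.9% and Satb1 at 48.65%. Foxp1 was at 63.7%, Foxo1 at 65.5% and Klf2 at 70.2%. How many of all tested genes lay as low on this scale was not computed. Tcf7, at 80.0%, lay between the WT libraries (78.6 and 121%). The 7 CD3 and T cell receptor constant genes alone varied as much inside WT, from 2752 to 4948 RPM. Scaled to them, Tcf7 changed sign in all 3 comparisons, at 0.01, -0.04 and -0.05. On that scale 0 members in CKO and 0 in BTg kept groups apart from WT, and 1 of 7 kept BTg apart from CKO.

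The summed markers of 4 of 7 other cell types, namely neutrophils, plasma cells, monocytes and B cells, were highest in CKO replicate 1. Neutrophil markers were 122 and 330.3 RPM in WT, 13370 and 400.1 in CKO, and 79.0 and 84.7 in BTg, and 10 of 10 had a higher CKO mean. Plasma cell markers were 1100 and 1097 in WT, 6191 and 1676 in CKO, and 944 and 632.5 in BTg, with 8 of 8 higher in CKO. The 10 monocyte and macrophage markers summed to 82.0 and 157 in WT, 1198 and 204 in CKO, and 64.8 and 56.4 in BTg, and all 6 tested were higher in CKO. C1qa and C1qb were at 0 in BTg replicate 2. B cells also express Bach2, Foxp1, Foxo1 and Klf2, and their 9 markers were low, at 31.7 and 62.1 in WT, 121 and 69.6 in CKO, and 30.7 and 40.3 in BTg. Of the 8 tested B cell markers 5 had a higher CKO mean than WT, with a median of 0.58. Erythroid markers (126 and 1459 in WT, 514 and 931 in CKO, 155 and 255 in BTg) and dendritic cell markers (8.38 and 39.5 in WT, 19.6 and 34.2 in CKO, 7.67 and 15.0 in BTg) were highest in WT replicate 2. CD8 and NK cell markers were 69.8 and 53.6 in WT, 26.1 and 44.7 in CKO and 70.0 and 69.3 in BTg. Most of that sum in BTg was Prf1, at 41.7 and 31.2 in WT, 10.3 and 25.1 in CKO and 56.05 and 54.35 in BTg. Of the 6 tested CD8 and NK markers the other 5 had a lower BTg mean than WT, and the median over all 6 was -0.49. Without CKO replicate 1 the 10 neutrophil and 8 plasma cell markers were still all higher in CKO, with medians of 1.48 and 0.75. The part of these cells in the members' values was not tested.

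**Figure D4:**
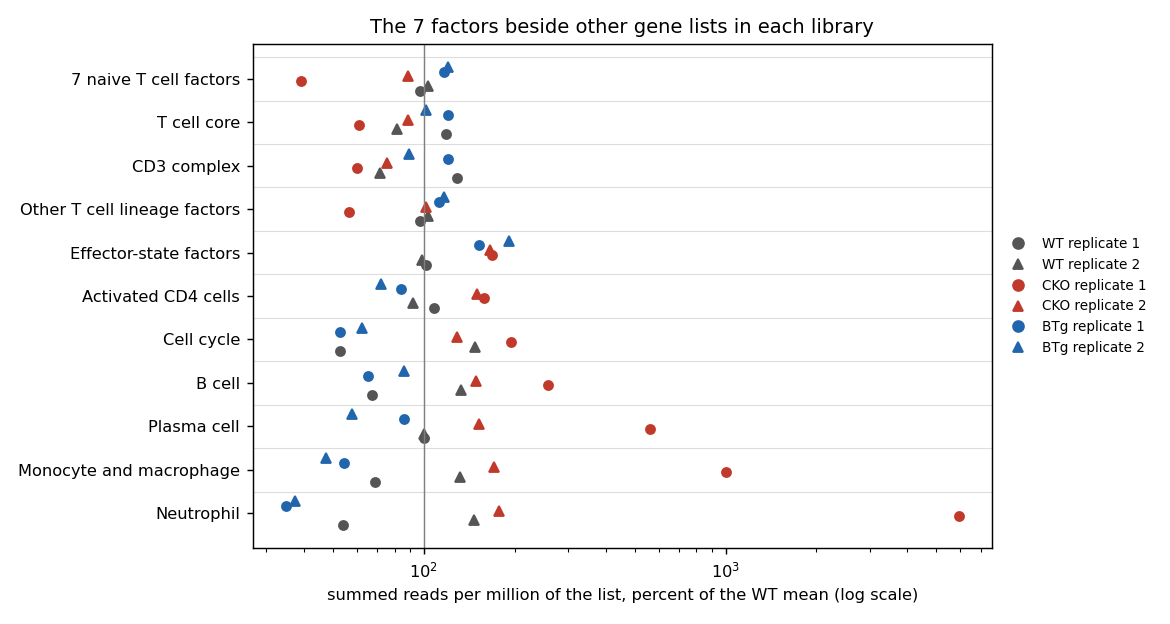
Summed RPM of the 7 factors and of 10 other gene lists in each library, as percent of the list's WT mean (log axis). In CKO replicate 1 the factors are at 39.1% and core T cell genes at 60.8%, while neutrophil markers are at 5917% and plasma cell markers at 564%; the effector-state sum of BTg includes Prdm1.

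Genes that FOXO1 or KLF2 are known to activate were read beside them. Of Ccr7, Il7r, S1pr1, Itgb7 and Cdkn1b, 0 were called in any comparison by limma adjusted p. Il7r, the interleukin-7 receptor chain, stood at 547 and 404 in WT, 193 and 400.2 in CKO, and 176 and 203 in BTg. Ccr7, the chemokine receptor for entry into lymph nodes, stood at 478 and 384 in WT, 114 and 285 in CKO, and 272 and 267 in BTg. S1pr1, the receptor for exit from lymphoid organs, stood at 514 and 437 in WT, 179 and 367 in CKO, and 570.5 and 456 in BTg. In BTg, S1pr1 thus overlapped WT, while Il7r and Ccr7 lay below both WT libraries, as did 12.6% of tested genes. Both CKO libraries also lay below both WT libraries for Il7r, Ccr7 and S1pr1, against 9.12% of tested genes. For Il7r that gap was narrow, from 400.2 in CKO replicate 2 to 404 in WT replicate 2. Itgb7, a gut-homing integrin chain, stood at 713 and 868 in WT, 520.3 and 871 in CKO, and 971 and 1026 in BTg. Itgb7 so lay above WT in BTg, as did 13.7% of tested genes. Cdkn1b, an inhibitor of the cell cycle, stood at 272 and 288.5 in WT, 166 and 312 in CKO, and 274 and 293 in BTg, with BTg overlapping WT.

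**Figure D5:**
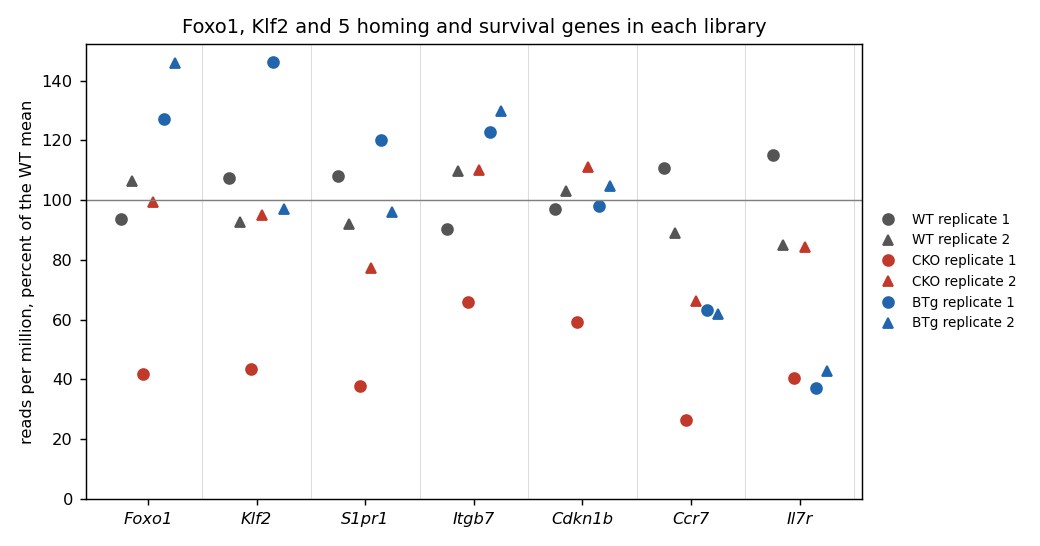
Foxo1, Klf2 and 5 homing and survival genes in each library, as percent of each gene's WT mean (linear axis from 0). In BTg (blue) Foxo1, S1pr1 and Itgb7 are near or above 100% while Ccr7 and Il7r are below it, and in CKO replicate 1 every gene shown is under 70%.

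Counted by gene, relatives of the 7 factors were divided in direction. Of 19 relatives in the TCF/LEF, FOXO, FOXP, BACH, KLF and related families 16 were tested. In CKO 8 were higher and 8 lower, in BTg against WT 9 higher and 7 lower, and 0 were called in any of the 3 comparisons. The medians were 0.04, 0.03 and 0.05 for CKO against WT, BTg against WT and BTg against CKO. In CKO 11 were higher and 5 lower without CKO replicate 1. The sum of the relatives was less divided, at 61.8 and 105% of its WT mean in CKO and 110 and 122% in BTg. Klf13 and Klf3 were the most abundant. Klf13 stood at 343 and 404.5 RPM in WT, 185 and 370 in CKO and 479 and 561 in BTg. Klf3 stood at 245 and 301 in WT, 113.5 and 256 in CKO and 276 and 324 in BTg. The low CKO means of both rested on CKO replicate 1. Klf7 stood at 33.2 and 37.5 RPM in WT, 12.9 and 27.9 in CKO and 46.0 and 46.5 in BTg, with no overlap between groups. Klf4, better known in myeloid cells, went the other way, at 2.70 and 5.11 in WT, 24.1 and 6.37 in CKO and 3.61 and 2.01 in BTg. Foxp3, the factor of regulatory T cells, stood at 68.6 and 81.0 in WT, 81.4 and 120 in CKO and 44.2 and 51.4 in BTg.

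Partner proteins were counted next. Of 10 genes for beta-catenin, plakoglobin, TLE corepressors and small Maf proteins, 0 were called in any comparison, with medians of -0.17, 0.07 and 0.26 in the same order. The CKO against WT median was 0.01 without CKO replicate 1. Aes, a short TLE relative, stood at 535 and 545 RPM in WT, 370 and 512 in CKO and 717 and 669.9 in BTg. Mafg, a partner of BACH2, stood at 30.0 and 57.5 in WT, 64.8 and 72.4 in CKO and 31.4 and 44.6 in BTg. Tle4, a corepressor, stood at 57.9 and 74.3 in WT, 35.8 and 69.8 in CKO and 88.1 and 90.4 in BTg.

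Among other quiescence genes and other factors of T cell identity, 0 were called in any comparison, and their lean in CKO rested on 1 library. Of 11 tested quiescence genes 10 had a lower CKO mean and 10 a higher BTg mean than WT, with medians of -0.12 and 0.14. Of 14 T cell identity factors 12 were lower in CKO and 11 higher in BTg, with medians of -0.22 and 0.16. Without CKO replicate 1, 7 of 11 quiescence genes and 10 of 14 identity factors were instead higher in CKO than in WT, with medians of 0.14 and 0.13 beside 0.15 over all tested genes. Tox, a factor of follicular helper and exhausted cells, was among the exceptions, with a CKO difference of 0.57 and a BTg difference of -0.87 from WT. Summed over the 14 identity factors, CKO replicate 1 was at 56.6% of the WT mean and CKO replicate 2 at 101.5%, and summed over the quiescence genes at 62.9 and 93.2%.

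Effector-state factors and activation markers leaned the other way. Of 14 effector-state factors 13 had a higher CKO mean than WT, with a median of 0.92, and 13 of 14 without CKO replicate 1, with a median of 0.95. In BTg against WT 12 were lower, with a median of -0.46, and 1 was called, Prdm1. Bhlhe40 and Nfil3 differed most in CKO, by 1.86 (SE 0.46) and 1.45 (SE 0.42), neither past the threshold. Of 12 markers of activated CD4 cells 8 were higher in CKO, and 10 were lower in BTg against WT, with medians of 0.765 and -0.55 and 0 called. Leaving out CKO replicate 1, 9 of 12 were higher in CKO. Against CKO, Icos, Pdcd1 and Cxcr3 fell in BTg, with log2 changes of -2.03, -2.615 and -2.28 and limma adjusted p = 0.0401, 0.0335 and 0.0349. These calls ended without CKO replicate 1 (limma adjusted p = 0.115 to 0.129), with differences then of -1.89, -2.59 and -2.50, and also without either BTg library (0.0749 to 0.205). They ended too without a filter, on deposited FPKM, with quantile normalization, with limma voom, by TPM and with the 4 libraries compared. With median-of-ratios scaling Icos and Pdcd1 were lost (limma adjusted p = 0.0727 and 0.0683) and Cxcr3 was kept (0.0408). With a minimum of 5 RPM in 2 libraries Icos alone was lost (limma adjusted p = 0.0536). Over all alternatives run the limma adjusted p ranged from 0.00197 to 0.205 for Icos, 0.000123 to 0.16 for Pdcd1 and 0.00098 to 0.177 for Cxcr3. In the CKO libraries Icos stood at 155 and 127 RPM and Pdcd1 at 119 and 114.5. All 12 cell cycle genes had a higher CKO mean, while their sum was 706 and 1978 in WT, 2611 and 1732 in CKO and 706 and 837 in BTg, so CKO replicate 2 lay within the WT range.

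For each factor the 3 protein-coding genes with the most similar profile were taken by Pearson's r of log2(RPM + 1) over the 6 libraries, from 8983 candidates. Because CKO replicate 1 stands apart, r over the other 5 libraries is given beside it. For Satb1 they were Acvr1b, Filip1l and Klf7 (r = 0.9983 to 0.9995, and 0.99 to 0.997 without that library). For Foxo1 they were Meis3, Nck2 and Arid4a (0.9983 to 0.999, and 0.993 to 0.997), and for Foxp1 Slc25a23, Tbxa2r and Dgka (0.9973 to 0.9994, and 0.974 to 0.997). Bach2 was most like Usp28, Tet1 and Ryr2 (0.9976 to 0.9985, and 0.973 to 0.989), and Lef1 most like Samd9l, Xkrx and Ddr1 (0.9971 to 0.998, and 0.961 to 0.983). Klf2 matched Zscan2, Sdr39u1 and Erich1 less closely (0.988 to 0.9928, and 0.946 to 0.971). Tcf7 had Leng1, Zfp407 and Epb41l2 (0.9949 to 0.9966), of which Zfp407 dropped to 0.731 and Leng1 to 0.805. Dgka, a diacylglycerol kinase that limits T cell receptor signalling, stood at 1459 and 1453 RPM in WT, 492 and 1362 in CKO and 1721 and 2083 in BTg. With 6 libraries and 8983 candidates, these r values are a description.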

How the data were processed

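Per the labels' protocols, RNA was prepared with TRIzol, and NEBNext Ultra reagents were used for the libraries. GRCm38 is the build named, and featureCounts 1.6.0, HISAT2 2.1.0 and Trimmomatic 0.38 the tools, per the submitters' processing notes. The sources used here do not give settings, annotation release or strand handling. The authors deposited FPKM values for 28914 genes by Ensembl identifier, all matched to GENCODE M21. Multiplied by each gene's median transcript span on the genome, introns included, 100.0% of values above 0 were whole reads within 0.01, against 21.2 to 22.9% with exon length. The deposited FPKM thus divide by this span, which puts Bach2 under 1 FPKM in 5 of 6 libraries. RPM were recovered from it, and TPM were computed with joined exon length.

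Genes with at least 1 RPM in 2 libraries were tested on log2(RPM + 1), with all 6 libraries in 1 limma fit (R 4.3.3, limma 3.58.1, eBayes with trend, no block) and Benjamini-Hochberg adjusted p under 0.05 over all 14334 genes. The fit was also run on simulated data with independent values and no library that stood apart. That run cannot show how the fit handles CKO replicate 1. An exact permutation test of 2 libraries against 2 cannot go below 0.333. Groups came from sample titles. Replicate numbers came from the bracketed column names, because both BTg titles otherwise end in the same number.

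The members and the gene lists were chosen with earlier results of these data known. Every member is described. In each other list, genes past the threshold were eligible to be named, otherwise up to 2 per comparison with the largest difference among those without overlap. Il7r, Itgb7, Cdkn1b, C1qa, C1qb, Klf13 and Klf3 were named after their values were seen. Results of some listed genes are not reported here. Sequences are from RefSeq. Members other than Klf2 overlap other annotated genes (up to 435 reads per library), so the division of reads between them is uncertain. Figures were drawn with matplotlib 3.10.9.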

Additional observations from a re-analysis of the deposited data

How the results depend on the processing

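In CKO against WT and BTg against CKO the 6 factors other than Tcf7 kept their direction under every alternative run, and in BTg against WT the 5 other than Tcf7 and Klf2 did. Bach2 could not be tested on deposited FPKM, where it missed the minimum. No factor passed the threshold under an alternative that kept both CKO libraries. Tcf7 turned sign on the CD3 scale (0.01 in CKO against WT, -0.043 in BTg against WT and -0.054 in BTg against CKO). That scale also shifted the median of all genes by 0.451 and -0.531 in the CKO comparisons. Klf2 in BTg against WT was -0.04 without BTg replicate 1 and 0.551 without BTg replicate 2. Members below WT in CKO without overlap numbered 4 (9.12% of tested genes), but 7 with median-of-ratios scaling (15.9%), 0 on the CD3 scale (1.12%) and 2 by TPM (7.69%). Members above WT in BTg numbered 6 (13.7%), but 0 on the CD3 scale (1.83%) and 3 by TPM (12.9%). They numbered 4 with quantile normalization (18.6%) and 5 with median-of-ratios scaling (17.3%). With totals that leave out immunoglobulin, haemoglobin and neutrophil genes they numbered 5 (13.1%). Members above CKO in BTg numbered 7 (16.9%), but 1 on the CD3 scale (2%) and 5 with quantile normalization (29.9%). Leaving out 1 library gave 4 to 7, 6 to 7 and 7 in the same order, against 17.2 to 47.1, 20.4 to 51 and 21.2 to 50.7% of tested genes, since a single library overlaps less often.

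Genes called in CKO against WT were 0, 250 on the CD3 scale, 3 with the 4 libraries compared, and 0 to 503 leaving out 1 library, the highest without CKO replicate 2. In BTg against WT they were 4, and 10 with a pseudocount of 0.25, 2 without a filter, 2 on deposited FPKM, 11 on the CD3 scale, 2 with limma voom and 2 to 4 leaving out 1 library. In BTg against CKO they were 27, and 55 with a pseudocount of 0.25, 2 without a filter, 13 with a minimum of 5, 2 on deposited FPKM, 9 with median-of-ratios scaling, 6 with quantile normalization, 975 on the CD3 scale, 6 with limma voom, 8 with the 4 libraries compared, 2 by TPM and 4 to 1417 leaving out 1 library, the highest without CKO replicate 2. The cause of these changes was not tested. With a replicate block the counts were 0, 2 and 123, and 0 factors passed. Same-numbered libraries deviated together at r = 0.081 (WT and CKO), 0.568 (WT and BTg) and 0.456 (CKO and BTg) across genes, and the labels do not say that a number marks a shared mouse or day. Scalings of member counts and of the gene lists, TPM, the leave-one-out member counts, the shares of tested genes beside them and the lists without CKO replicate 1 were added after seeing the data.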
